A study of Canis lupus familiaris with 18 samples.

Results

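H/ACA small nucleolar RNAs were examined in high grade oligodendroglioma (HGO) of French bulldogs, boxers and Boston terriers. The deposited count file lists 29993 genes by Ensembl gene ID. Members were chosen by symbol and by measured level. The symbol had to start with SNORA or SCARNA followed by a number, and the counts summed over all libraries had to reach 10. In all, 71 genes had a SNORA symbol and 0 had a SCARNA symbol, so the small RNAs of the Cajal body were not represented by symbol. Of the 71 genes, 25 were under the minimum (16 of them at 0 counts) and 46 were kept. Just inside the minimum were SNORA70-55768 with 11 counts, and SNORA72-26299 and SNORA70-27821 with 12 counts each. SNORA70-27977 also had 12 counts. Just outside it were SNORA70-26305 with 9 counts, SNORA62-25979 with 4 counts and SNORA72-26411 with 3 counts. Several genes share a symbol, so each gene is written here as its symbol and the last 5 digits of its Ensembl gene ID. SNORA73-22269, for example, is ENSCAFG00000022269.

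The tissue was formalin-fixed, paraffin-embedded HGO of the forebrain, taken by surgical resection from pet dogs before any trial treatment, and the labels give breed but no age. RNASeq libraries were made from total RNA after ribosomal RNA was removed, and 18 libraries were deposited, for 11 French bulldogs, 4 boxers and 3 Boston terriers. One case number appears in the labels of both French bulldog 2 and French bulldog 8, and their counts were summed as French bulldog 2, which leaves 10 French bulldogs and 17 dogs. Boxers and Boston terriers together are called the comparison group (n = 7). The paper gives a lower mean age for the French bulldogs and states that sex and tumor location also differed between the groups. Comparison libraries carry the numbers S18 to S21 or S1 to S3 in their names, and S1 to S3 also occur among the French bulldogs. In the main comparisons, breed cannot be told apart from age, sex, tumor location or library numbering. RNA came from sections of a paraffin block with all their cells, so fewer cells of a type and less RNA per cell cannot be told apart.

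H/ACA small RNAs fold into paired hairpins and carry a pseudouridine synthase, dyskerin, to chosen uridines of ribosomal RNA. A few members act in the cleavage of the ribosomal RNA precursor instead of guiding a modification. Most are cut out of the introns of host genes, many of which encode ribosomal proteins or translation factors, and related RNAs of the Cajal body guide changes in spliceosomal RNAs. Dog genomes, like human ones, hold many copies of some of these sequences, and a symbol alone does not say which copy is made in a cell. Reads of an unspliced host transcript that cover a small RNA are counted with it, and reads from near-identical copies may have been split between genes.

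Libraries held between 8212452 and 13169880 counts, and a level of 3 counts, taken as the smallest the depth could show, corresponded to 0.228 to 0.365 CPM, the count scaled to a library of fixed size. CPM values below are also scaled by TMM factors and called normalized CPM. French bulldog 6 stood apart from the other dogs. Its summed oligodendrocyte lineage markers were at 45.0 normalized CPM against 2251 to 13703 in the others, with OLIG2, which defines the lineage, at 0 counts. Its macrophage and microglia markers summed to 6721 normalized CPM against 50.7 to 313. Its neuron markers summed to 0.826 normalized CPM against 61.4 to 1128, and its astrocyte markers to 3.51 against 243 to 3776. Cycling cell markers were at 904 normalized CPM in this dog (44.1 to 912 elsewhere) and endothelium markers at 172 (83.2 to 573 elsewhere). Over the groups, 9 of 9 macrophage and microglia markers tested had a log2 fold change above 0, with a median of 2.24 and 6 at an unadjusted p under 0.05 by edgeR (53.6% of all genes were above 0 and 9.56% under that p). Without French bulldog 6 these were 7 of 9, 0.43 and 1 (52.7% and 8.51% of all genes). The 2 cycling cell markers tested had a median of 1.18, and 0.85 without that dog. French bulldog 9 had the lowest sum of the cycling cell markers, 44.1 normalized CPM, and the highest sums of neuron (1128 normalized CPM) and astrocyte markers (3776 normalized CPM). The part of these differences in the results below was not tested beyond leaving out each dog.

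The 46 genes held 249130 counts under 9 symbols, and a few copies held most of them. SNORA73, which acts in the processing of the precursor of the small ribosomal subunit RNA, held 74705 counts or 30% of the total over 3 genes. SNORA62 held 51050 counts (20.5%) over 11 genes, and SNORA74 held 28327 counts (11.4%) over 2 genes. SNORA71 held 9.48%, SNORA70 8.17%, SNORA72 7.28%, SNORA66 6.86%, SNORA63 4.70% and SNORA75 1.65%. For most symbols a single copy led. SNORA72-25847 held 98.8% of the SNORA72 counts, SNORA62-22368 held 91.5% of those of SNORA62, SNORA74-25850 held 87.5% of those of SNORA74 and SNORA70-26463 held 86.1% of those of SNORA70. SNORA71 differed from these, since its leading gene, SNORA71-25838, held 39.6% of the counts of the symbol. Across the 46 genes, 17 had at least 1000 counts and 20 had fewer than 100. Gene lengths were not used, so these are shares of counts and not levels per length.

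**Figure D1:**
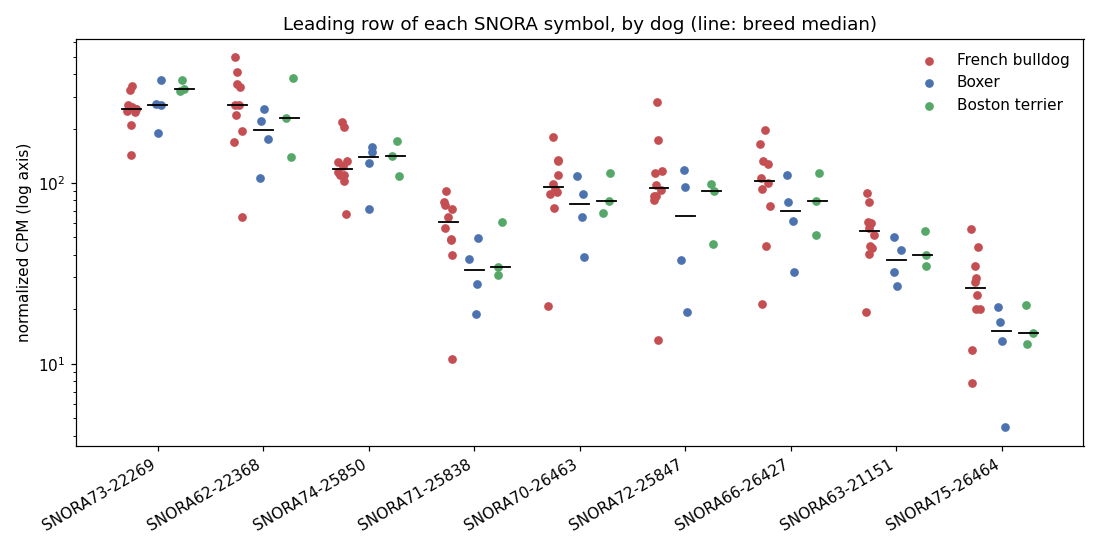
Normalized CPM (log axis) of the gene with the most counts under each of the 9 SNORA symbols. Each point is a dog, colored by breed, and the line is the breed median. The breeds overlap for all 9 genes, and French bulldog 9 lies well below the other French bulldogs for SNORA70-26463 (20.8), SNORA72-25847 (13.6) and SNORA66-26427 (21.4).

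Together the 46 genes took 0.137% ± 0.0445 (SD, n = 10) of the library in French bulldogs, 0.115% ± 0.0343 (n = 4) in boxers and 0.138% ± 0.0260 (n = 3) in Boston terriers. The lowest share, 0.0593%, was in French bulldog 9 and the highest, 0.233%, in French bulldog 5. Boxer 3 had the lowest share of the comparison group, 0.0738%, and Boston terrier 7 the highest, 0.163%. The range of French bulldogs enclosed that of the comparison group, and French bulldogs 5 and 10 (0.167%) were above every comparison dog. Of all counts on genes recognised as small RNAs by symbol, the H/ACA genes held 8.96% ± 1.78 for French bulldogs (n = 10) and 9.38% ± 2.56 for the comparison dogs (n = 7). No test was made of these sums.

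**Figure D2:**
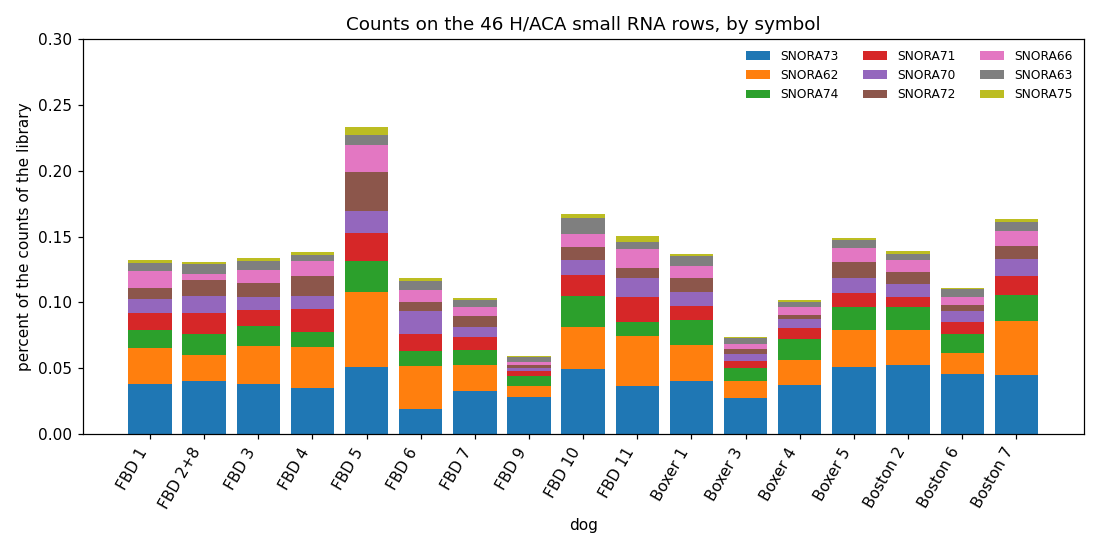
Percent of the counts of each library held by the 46 H/ACA genes, with 1 bar per dog (FBD, French bulldog) and colors for the 9 symbols. French bulldog 5 has the tallest bar (0.233%) and French bulldog 9 the shortest (0.0593%), of which the SNORA73 segment makes up 48.0%.

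SNORA73-22269 was the most counted gene and one of the steadiest. In French bulldogs it ranged from 143 normalized CPM in dog 6 to 345 in dog 10, with a median of 255. The boxers were at 270, 188, 273 and 372 normalized CPM (dogs 1, 3, 4 and 5) and the Boston terriers at 371, 330 and 323 (dogs 2, 6 and 7). Only 2 of 10 French bulldogs were above the median of the comparison group (323 normalized CPM), but the groups overlapped. The log2 fold change of French bulldogs over the comparison group was -0.24 ± 0.18 (SE), with an adjusted p of 0.662 by edgeR's quasi-likelihood test with Benjamini-Hochberg adjustment. The approximate 95% interval, taken from the SE with the normal distribution, was -0.59 to 0.10. Such an interval is narrower than one from the distribution of that test. The dispersion that edgeR fitted to this gene was 0.0824, against medians of 0.206 over all genes tested and 0.227 over the H/ACA genes tested. Its highest dog was 2.61-fold above its lowest.

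SNORA62-22368 was the second most counted gene and varied more. French bulldogs ranged from 64.6 normalized CPM in dog 9 over a median of 270 to 495 in dog 5. Boxers were at 219, 107, 174 and 258 normalized CPM, and Boston terriers at 229, 139 and 380. Its log2 fold change was 0.38 ± 0.33 (SE), with an adjusted p of 0.728 by edgeR's quasi-likelihood test. The French bulldog range enclosed that of the comparison group. SNORA74-25850 had nearly equal means, with 131 ± 45.5 (SD, n = 10) normalized CPM for French bulldogs and 133 ± 33.2 (n = 7) for the comparison dogs. Its log2 fold change of -0.02 had an approximate interval, made in the same way, of -0.45 to 0.42.

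SNORA73-22470, the second copy of its symbol, had means of 120 ± 36 (French bulldogs) and 100 ± 26.9 normalized CPM (comparison group), with a log2 fold change of 0.26 ± 0.23. SNORA72-25847 had the widest range among the leading copies, 20.6-fold, from 13.6 normalized CPM in French bulldog 9 to 281 in French bulldog 5. Boxer 4 was also low for it, at 19.4 normalized CPM. SNORA70-26463, whose human counterpart is carried by a ribosomal protein gene, had means of 102 ± 42.2 (French bulldogs) and 80 ± 26.1 normalized CPM (comparison group). SNORA66-26427 was at 106 ± 52.3 and 75.4 ± 29.9 normalized CPM. For each of these 4 genes the groups overlapped, and the log2 fold changes of the last 3 were 0.66, 0.35 and 0.49. With each dog left out, these ranged from 0.40 to 0.82, from 0.22 to 0.47 and from 0.34 to 0.62.

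The comparison of French bulldogs with boxers and Boston terriers is the one the study was designed around. Of the 46 genes, 21 passed the filter on low counts and were tested. The called count was 0 of 21 at an adjusted p under 0.05, by edgeR's quasi-likelihood test, and 0 of all 16584 genes tested were called (0%). At an unadjusted p under 0.05 there were 6 of 21, against 1586 of 16584 genes (9.56%). All 6 had the higher mean in French bulldogs, a direction in which 6.46% of all genes passed that limit. The log2 fold change was above 0 for 16 of 21 genes, against 53.6% of all genes. Its median was 0.57 over the 21 genes and 0.03 over all genes. In 0 of 21 genes were the groups without overlap, and this was so for 0.0543% of all genes. The smallest adjusted p among the 21 was 0.509.

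DESeq2's Wald test, run without the edgeR filter, gave an adjusted p for 37 of the 46 H/ACA genes and called 0 of 37 at 0.05 (0.162% of all genes with an adjusted p were called). At an unadjusted p under 0.05 there were 12 of 46 (8.56% of all genes), 2 of them among the 9 without an adjusted p. Of the 12, SNORA71-26248 (log2 fold change -2.31, 22 counts in all) and SNORA72-27911 (-1.40, 56 counts) were lower in French bulldogs. The others were higher. With limma-voom the counts were 0 of 21 (0.00603% of all genes were called) and 1 of 21 (7.84%). Leaving out French bulldog 9 raised the edgeR count at an unadjusted p under 0.05 from 6 to 11 (11.3% of all genes), and leaving out Boston terrier 6 lowered it to 3 (6.66% of all genes). It was 5 without French bulldog 6 (8.51% of all genes). When each library was scaled to its small RNA counts alone, the count was 1 (5.37% of all genes), and the median log2 fold change was 0.23 against -0.20 over all genes. Against the comparison libraries numbered S18 to S21 the median was 0.62 over 24 genes and 0.03 over all genes, with 6 of 24 at an unadjusted p under 0.05 (4.12% of all genes). Against those numbered S1 to S3 it was 0.31 over 25 genes and 0.10 over all genes, with 2 of 25 at that limit (3.84% of all genes).

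**Figure D3:**
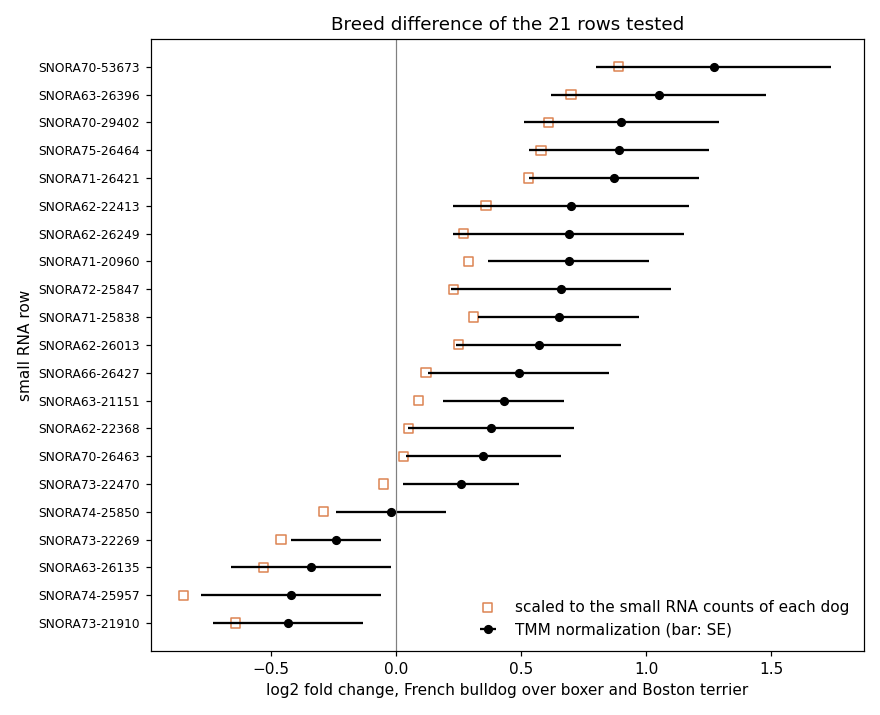
Log2 fold change of French bulldogs over the comparison group for the 21 H/ACA genes tested. Black points and bars are the TMM-normalized fit and its SE, and open squares are the values with each library scaled to its small RNA counts. The values run from 1.27 (SNORA70-53673) to -0.43 (SNORA73-21910), and every square lies to the left of its point. The same scaling moved the median over all genes from 0.03 to -0.20.

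SNORA70-53673 had the smallest p of the 21 genes, although it was a minor copy of its symbol. French bulldogs ranged from 0.230 normalized CPM in dog 9 over a median of 3.0 to 6.20 in dogs 6 and 11. The boxers were at 1.29, 0.999, 0.852 and 1.40 normalized CPM and the Boston terriers at 1.5, 0.998 and 2.63. In 9 of 10 French bulldogs it was above the median of the comparison group, and French bulldog 9 was below every dog of that group, at 3 counts. The log2 fold change was 1.27 ± 0.47 (SE), with an unadjusted p of 0.0151 and an adjusted p of 0.509 by edgeR's quasi-likelihood test. SNORA70-29402, a further copy, ranged from 1.53 over a median of 10.9 to 21.7 normalized CPM among French bulldogs and from 3.18 over a median of 5.08 to 10.4 among the comparison dogs. Its log2 fold change was 0.90 ± 0.39 (unadjusted p = 0.0360, adjusted p = 0.509, edgeR).

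The 3 tested SNORA71 genes had log2 fold changes between 0.65 and 0.87. SNORA71-26421 ranged from 8.96 normalized CPM in French bulldog 9 over a median of 53.9 to 76.9 in French bulldog 5, and from 15.3 in boxer 3 to 50.5 in Boston terrier 7. Its log2 fold change was 0.87 ± 0.34 (unadjusted p = 0.0210, adjusted p = 0.509, edgeR). SNORA71-20960 had means of 37.1 ± 18 (French bulldogs) and 23.1 ± 5.75 normalized CPM (comparison group). Its log2 fold change was 0.69 ± 0.32 (unadjusted p = 0.0448, edgeR). French bulldog 6 was the lowest of all dogs for this gene, at 10.7 normalized CPM, and French bulldog 11 the highest, at 62.3. SNORA71-25838 had a log2 fold change of 0.65 ± 0.32 with an unadjusted p of 0.0586 by edgeR. For all 3 genes the French bulldog range enclosed that of the comparison group.

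SNORA75-26464 carries the symbol of the small RNA that lies in the nucleolin gene in humans. French bulldogs ranged from 7.81 normalized CPM in dog 9 over a median of 26.2 to 55.9 in dog 5. Boxers were at 17.1, 4.45, 13.4 and 20.5 normalized CPM and Boston terriers at 14.8, 12.9 and 21.2. Boxer 3 was the lowest dog of all, and French bulldogs 7 and 9 were below the median of the comparison group. The log2 fold change was 0.89 ± 0.36 (unadjusted p = 0.0245, adjusted p = 0.509, edgeR).

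The SNORA63 genes, whose human counterpart lies in a gene for a translation initiation factor, differed from each other. SNORA63-26396 was above the median of the comparison group (0.831 normalized CPM) in 10 of 10 French bulldogs, which ranged from 1.14 to 4.95 with a median of 2.13. Boxer 1 and Boston terrier 2, at 2.49 and 2.34 normalized CPM, lay within that range, and the other 5 dogs were between 0.537 and 0.999. Its log2 fold change was 1.05 ± 0.43 (unadjusted p = 0.0257, adjusted p = 0.509, edgeR). It was 0.62 against the comparison libraries numbered S18 to S21 and 1.95 against those numbered S1 to S3 (unadjusted p = 0.235 and 0.00491, edgeR). The leading copy, SNORA63-21151, had 0.43 ± 0.24 (unadjusted p = 0.0896, edgeR), with means of 54.2 ± 19.4 (French bulldogs) and 40.2 ± 9.79 normalized CPM (comparison group). SNORA63-26135 had -0.34 ± 0.32, with means of 10.0 and 12.6 normalized CPM. Its log2 fold change ranged from -0.46 to -0.17 with each dog left out. It was -0.05 against libraries S18 to S21 and -0.63 against S1 to S3.

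SNORA62-26013 and SNORA62-26249 completed the 10 smallest p-values. The first had means of 13.7 ± 5.55 (French bulldogs) and 9.26 ± 4.45 normalized CPM (comparison group), at a log2 fold change of 0.57 ± 0.33 (unadjusted p = 0.10, edgeR). The second was at 2.67 ± 1.91 and 1.65 ± 0.908 normalized CPM (0.69 ± 0.46, unadjusted p = 0.152). Its 2 extreme dogs were French bulldog 6 at 7.85 normalized CPM and Boston terrier 6 at 0.166, and without French bulldog 6 its log2 fold change was 0.35 (unadjusted p = 0.393, edgeR). Among the genes that passed the filter, 2 more than SNORA73-22269, SNORA74-25850 and SNORA63-26135 had a log2 fold change below 0. They were SNORA73-21910 (-0.43 ± 0.30) and SNORA74-25957 (-0.42 ± 0.36). With each dog left out, SNORA73-21910 ranged from -0.59 to -0.24 and SNORA74-25957 from -0.52 to -0.29.

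The breeds were also compared one with another, in a fit of 3 groups in which 27 of the 46 genes and 18018 genes in all were tested. The contrasts share dogs and are given side by side. Against boxers, 0 of 27 H/ACA genes were called at an adjusted p under 0.05 (0% of all genes), and 5 of 27 had an unadjusted p under 0.05 (7.21% of all genes). Against Boston terriers, 0 of 27 were called (0.00555% of all genes), and 1 of 27, SNORA62-26249, had an unadjusted p under 0.05 (3.54%). Between boxers and Boston terriers the counts were 0 of 27 (0% of all genes) and 0 of 27 (2.18%). The median log2 fold changes over the 27 genes were 0.58 for French bulldogs over boxers, 0.47 over Boston terriers and -0.21 for boxers over Boston terriers. SNORA70-53673 had 1.56 ± 0.61 against boxers and 0.96 ± 0.65 against Boston terriers, and SNORA71-26421 had 1.08 ± 0.43 and 0.62 ± 0.47. All these are edgeR values.

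Between boxers and Boston terriers, the smallest p belonged to SNORA72-20735, at a log2 fold change of 2.20 ± 1.04 (unadjusted p = 0.0506, adjusted p = 1.0, edgeR). The boxers were at 0.896, 0.182, 2.65 and 0.107 normalized CPM and the Boston terriers at 0.187, 0.249 and 0.165. Boxers 1 and 4 were above the other dogs of both breeds, which had 1 to 3 counts each, too few to be ranked. Boxer 4 alone held 28 of the 114 counts of this gene. The next were SNORA62-26249 (1.06 ± 0.71), SNORA62-26307 (-1.19 ± 0.85), SNORA70-26014 (-1.61 ± 1.27) and SNORA73-22269 (-0.31 ± 0.28). These groups of 4 and 3 dogs were the smallest compared.

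The remaining 25 genes were below the filter of the fit of French bulldogs against the comparison group. They had between 11 and 131 counts in all, and 5 of them had no dog at 0 counts. SNORA70-27821 was the gene with the largest share of its counts in a single dog, 50.0%, in French bulldog 9.

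Dogs of the same breed differed widely. French bulldog 9 was the lowest of the 17 dogs in 14 of the 21 tested genes, with a median deviation of -1.77 on the log2 scale from the median of each gene. Boxer 3 was below the median in 20 of 21 genes, with a median deviation of -1.16. French bulldog 5 was the highest dog in 7 of 21 genes (median deviation 0.74). All small RNAs recognised by symbol took 0.639% of the library in French bulldog 9 and 0.822% in boxer 3, against means of 1.55% ± 0.462 (SD, n = 10) in French bulldogs and 1.2% ± 0.393 (n = 4) in boxers. The low values of these dogs were therefore not limited to the H/ACA genes. In French bulldog 9, SNORA63-26396 and SNORA63-26135 were above their medians (by 0.59 and 0.24 on the log2 scale), and SNORA73-22269 had a deviation of -0.38, at 208 normalized CPM. SNORA73 as a symbol held 48.0% of the H/ACA counts there. In French bulldog 6 it held 16.2%, the lowest share of the 17 dogs.

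**Figure D4:**
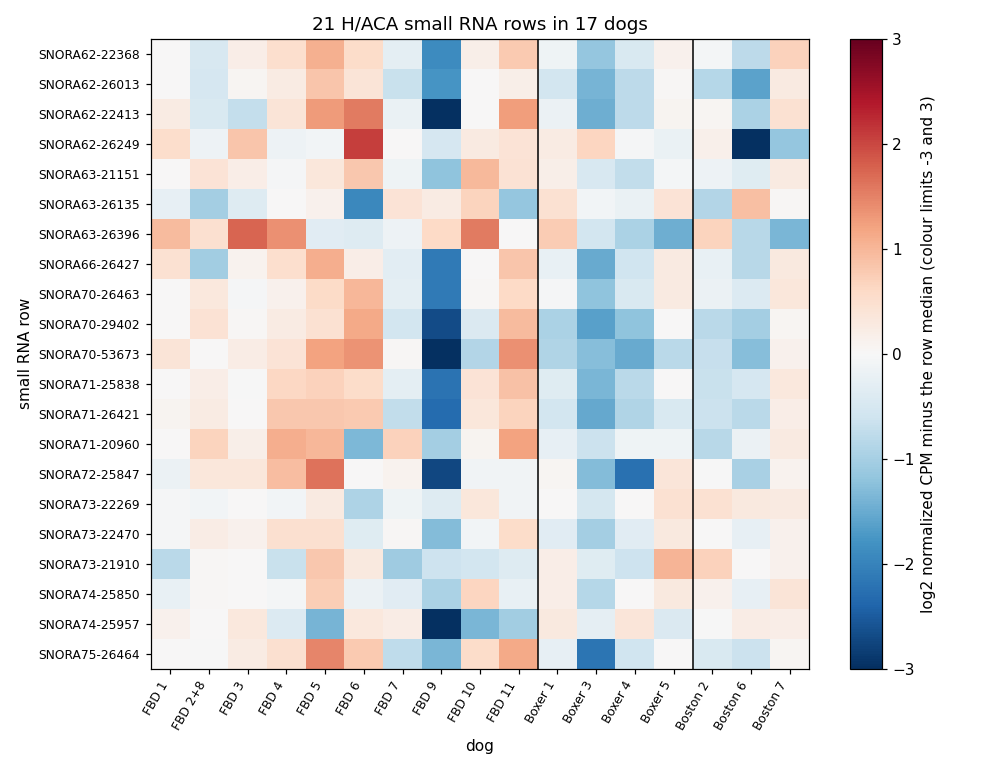
Log2 normalized CPM of the 21 tested H/ACA genes in each dog, as the difference from the median of the gene over 17 dogs (colors, limited to -3 and 3). Vertical lines separate French bulldogs (FBD), boxers and Boston terriers. The column of French bulldog 9 is blue for 19 of 21 genes and that of boxer 3 for 20.

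Likeness over the 17 dogs was read against the most counted genes. The correlations in this paragraph are descriptions over dogs that share a normalization and differ in small RNA share. SNORA62-22368 was most like SNORA62-26013 (Spearman's rho 0.94), SNORA66-26427 (0.93), SNORA75-26464 (0.93), SNORA62-22413 (0.89) and SNORA71-25838 (0.87). SNORA73-22269 was most like SNORA74-25850 (0.71), followed by SNORA63-26135 (0.45) and SNORA73-21910 (0.43), and its rho with the other abundant copy of its symbol, SNORA73-22470, was 0.27. With SNORA62-22368 its rho was 0.18.

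The ratio between copies of a symbol varied less over dogs for some pairs than for others. The counts of SNORA62-26013 were between 3.24% and 6.16% of those of SNORA62-22368 in every dog. SNORA71-26421 was between 65.2% and 106% of SNORA71-25838, with a rho of 0.96, and SNORA70-29402 between 5.82% and 14.1% of SNORA70-26463, with a rho of 0.94. By contrast, SNORA63-26135 ranged from 3.69% of SNORA63-21151 in French bulldog 6 to 67.9% in French bulldog 9, with a rho of -0.27. SNORA71-20960 ranged from 14.9% of SNORA71-25838 in French bulldog 6 to 126% in French bulldog 9. Its rho with that gene was still 0.67. For SNORA74-25957 the range was 3.18% to 23.7% of SNORA74-25850, with a rho of -0.09.

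Levels were also set beside genes that carry the small RNAs in human annotation. The position of each dog copy relative to these genes was not examined, and RPL5 was paired after values were seen. NCL, which encodes nucleolin, correlated with SNORA75-26464 over 17 dogs (Pearson's r = 0.72, permutation p = 0.00123, Benjamini-Hochberg adjusted over 4 pairs 0.00492, and Spearman's rho = 0.69, permutation p = 0.00301, adjusted 0.0120, both two-sided). Without boxer 4 and French bulldog 5, the dogs farthest from the median of NCL, r was 0.68. Within the French bulldogs r was 0.80 and within the comparison group 0.42. RPSA, a ribosomal protein gene, correlated with SNORA62-22368 (r = 0.60, permutation p = 0.0101, adjusted 0.0203, and rho = 0.59, permutation p = 0.0146, adjusted 0.0194), and r was 0.60 without boxer 4 and Boston terrier 7. It was 0.72 within French bulldogs and 0.62 within the comparison group.

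RPL5, also a ribosomal protein gene, correlated with SNORA66-26427 (r = 0.54, permutation p = 0.0260, adjusted 0.0347, and rho = 0.60, permutation p = 0.0121, adjusted 0.0194). Here r was 0.60 without boxer 4 and French bulldog 6, 0.71 within French bulldogs and 0.21 within the comparison group. EIF4A2, a translation initiation factor, did not pass with SNORA63-21151 (r = 0.33, permutation p = 0.192, adjusted 0.192, and rho = 0.28, permutation p = 0.268, adjusted 0.268). Its r was -0.03 without French bulldogs 2 and 10, 0.36 within French bulldogs and -0.21 within the comparison group. The relations were not particular to the named pairs. NCL had a rho of 0.68 with SNORA63-21151 and 0.62 with SNORA62-22368, and RPL5 had 0.61 with SNORA62-22368 and 0.59 with SNORA75-26464.

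**Figure D5:**
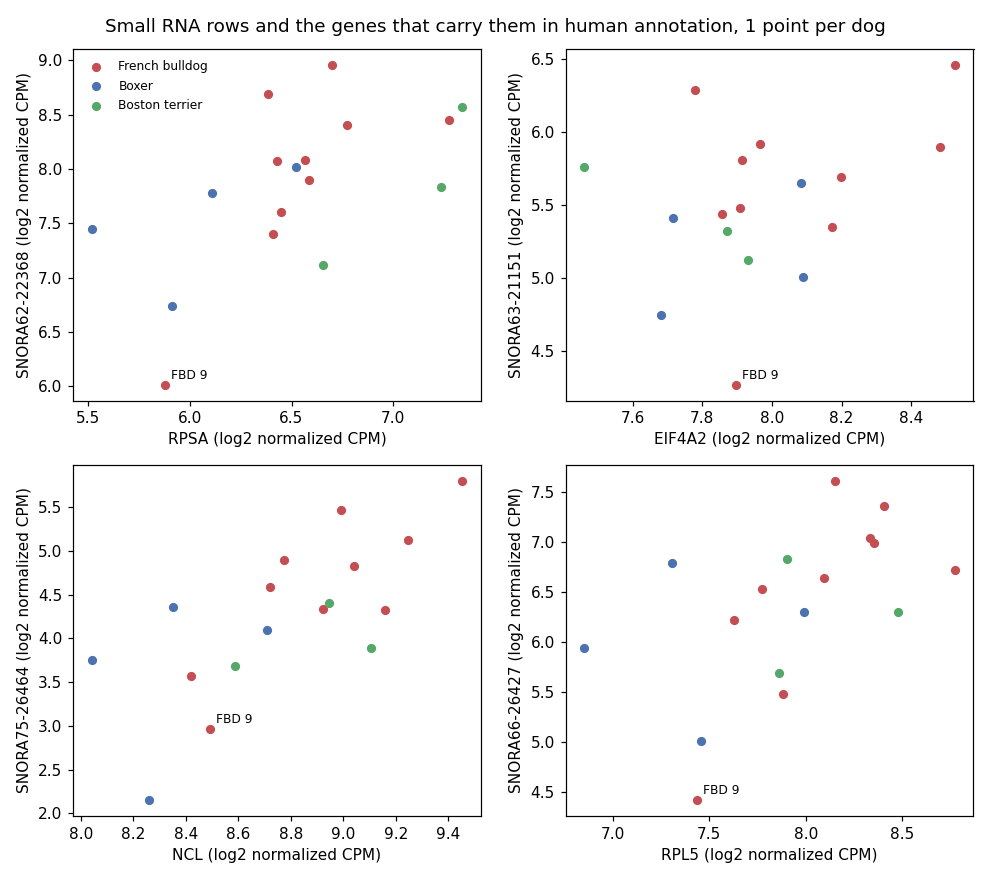
Log2 normalized CPM of 4 H/ACA genes (vertical) against the gene that carries each in human annotation (horizontal), with 1 point per dog, colored by breed. SNORA75-26464 increases with NCL (r = 0.72), while no such pattern is seen for SNORA63-21151 and EIF4A2 (r = 0.33).

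Host genes were read from the same fits. The log2 fold change of French bulldogs over the comparison group was 0.34 ± 0.19 for NCL, 0.24 ± 0.15 for EIF4A2, 0.36 ± 0.23 for RPL5 and -0.02 ± 0.24 for RPSA, and 0 of the 4 were called by edgeR (0% of all genes) or had an unadjusted p under 0.05 (9.56% of all genes). In the fit of 3 breeds, 3 of the 4 had an unadjusted p under 0.05 against boxers (7.21% of all genes), with 0.60 ± 0.22 for NCL, 0.53 ± 0.23 for RPSA and 0.68 ± 0.26 for RPL5. Against Boston terriers the values were 0.06 ± 0.23, -0.52 ± 0.24 and 0.02 ± 0.28, and RPSA alone had an unadjusted p under 0.05 (3.54% of all genes). RPSA was also the only one of the 4 below that limit for boxers over Boston terriers, at -1.05 ± 0.29 (2.18% of all genes). The smallest adjusted p of these genes in the 3 contrasts was 0.682 by edgeR.

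The proteins that make and carry H/ACA RNAs were read from the same fit. Of the core proteins, 3 of 4 were matched by symbol, and 0 of 3 were called (0% of all genes). DKC1, which encodes dyskerin, had a log2 fold change of 0.42 ± 0.29, and of the small proteins bound with it NHP2 had 0.24 ± 0.24 and NOP10 had 0.64 ± 0.23 (unadjusted p = 0.0140, adjusted p = 0.509, edgeR). Against boxers alone DKC1 had 0.76 ± 0.34 and NOP10 0.86 ± 0.29, both at an unadjusted p under 0.05 (7.21% of all genes). Against Boston terriers they had 0.07 ± 0.36 and 0.40 ± 0.31, both above that limit (3.54% of all genes were under it). French bulldogs lay between 5.47 and 13.4 normalized CPM for NOP10, and the other dogs between 4.92 and 9.55. Of the assembly and processing factors, 8 of 9 were matched, all 8 had a log2 fold change above 0 (0.02 to 0.24, median 0.17), against 53.6% of all genes, and 0 had an unadjusted p under 0.05 (9.56% of all genes). Without French bulldog 6 it was 6 of 8 above 0 (52.7% of all genes), with a median of 0.08. Against boxers alone 8 of 8 were above 0 (53.1% of all genes), with a median of 0.24, and against Boston terriers 3 of 8 (57.9% of all genes). They include SHQ1 (0.08), a dyskerin chaperone, PARN (0.19), a nuclease that trims the ends of these RNAs, and NOLC1 (0.20), a phosphoprotein of the nucleolus and Cajal body. Without French bulldog 6, SHQ1, PARN and NOLC1 had 0.08, -0.00 and 0.08.

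Of the Cajal body and telomerase genes, 8 of 10 were matched, 5 had a log2 fold change above 0 (53.6% of all genes), and 0 had an unadjusted p under 0.05 (9.56% of all genes). Without French bulldog 6 there were 2 at that limit (8.51% of all genes), in opposite directions, USPL1 at 0.36 and ELL at -0.48. COIL, which encodes the coilin that marks Cajal bodies, had 0.23 ± 0.20, GEMIN2, of the complex that assembles spliceosomal particles, had 0.36 ± 0.21 and USPL1, a Cajal body protein, had 0.34 ± 0.16. TERT, the catalytic subunit of telomerase, whose RNA is itself bound by the H/ACA proteins, had -1.0 ± 0.57 (unadjusted p = 0.0988, edgeR). Against boxers TERT had -1.44 ± 0.64 and against Boston terriers -0.05 ± 0.75 (unadjusted p = 0.0377 and 0.946, edgeR). It was at 0 counts in French bulldog 6, and boxer 1 was the highest dog, at 22.4 normalized CPM. The stand-alone pseudouridine synthases, which act without a guide RNA, numbered 11 of 11 matched, with 6 above 0 (53.6% of all genes), a median of 0.03 and 0 at an unadjusted p under 0.05 (9.56% of all genes). Without French bulldog 6, 5 of these 11 were above 0 (52.7% of all genes), with a median of -0.01.

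Other classes of small RNAs in the same libraries also had a median log2 fold change above 0. C/D box small nucleolar RNAs, which guide methylation of ribosomal RNA, had 62 genes with at least 10 counts and 38 tested. Of these, 36 had a log2 fold change above 0 (53.6% of all genes) and 21 had an unadjusted p under 0.05 (9.56% of all genes), with a median of 0.99. Spliceosomal and other U RNAs had 231 tested genes, 166 above 0 (53.6% of all genes), 65 below 0 and a median of 0.40. An unadjusted p under 0.05 was reached by 78 in the direction of French bulldogs and by 6 in the other, 36.4% in all (9.56% of all genes). As a share of the library, U RNAs went the other way, with 0.805% ± 0.256 (SD, n = 10) for French bulldogs and 0.887% ± 0.320 (n = 7) for the comparison dogs. The ranges overlapped. Boxers were at 0.724% ± 0.342 (n = 4), below French bulldogs, and Boston terriers at 1.10% ± 0.0807 (n = 3). The H/ACA median log2 fold change of 0.57 lay between those of the C/D box genes and the U RNAs. Scaled to small RNA counts alone, the medians were 0.62 for C/D box genes, 0.23 for H/ACA genes and 0.06 for U RNAs. The difference between these classes was not tested.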

How the data were processed

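RNASeq of formalin-fixed HGO tissue was analysed. The authors deposited raw counts per gene without normalization. Per the submitters' processing notes and methods, libraries were made with a stranded, ribosomal RNA-depleted total RNA kit, reads were trimmed with Trimmomatic 0.33, checked with FastQC, mapped with HISAT2 2.1.0 to the dog genome and counted with featureCounts, and DESeq2 was used for testing. Whether counting used strand or multi-mapped reads is not given in the sources used here.

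Counts of French bulldogs 2 and 8 were summed. The 10 French bulldogs were set against the 7 comparison dogs with edgeR 4.0.16 in R 4.3.3 (quasi-likelihood F test, TMM, filterByExpr, robust dispersions and no covariate). P-values were two-sided and adjusted over all genes tested by the Benjamini-Hochberg method, at a threshold of 0.05. A second fit took 3 breeds. SE is the log2 fold change over the square root of F. Alternatives were DESeq2 1.42.0, limma 3.58.1 (voom), other scalings, no filter, 18 libraries, each library series, each dog left out and a replicate block. Correlations with host genes used 100000 permutations and were chosen after the data were seen. Code was tested on simulated data. The depth was 8212452 to 13169880 counts, and limits from counts cover counting error only. P-values measure the spread between these dogs.

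Genes named are the 10 with the most counts, the 10 with the smallest p in the fit of 2 groups, the 5 with the smallest p between boxers and Boston terriers, those next to the count minimum, the gene with the largest share in 1 dog, and genes of the lists. Others were chosen after their values were seen. Members and lists were chosen with earlier results of these data known. Matplotlib 3.10.9, numpy 2.4.6 and pandas 2.3.3 under Python 3.11.15 made the figures and tables. No small RNA sequences were used here.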

Additional observations from a re-analysis of the deposited data

Results flagged for a closer look

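In 69 groups of 4 to 10 dogs, 3 values stood apart from the others by Dixon's criterion, which chance meets in about 1 of 20 groups. SNORA62-26249 was at 7.85 normalized CPM in French bulldog 6, against 1.30 to 3.30 in the other French bulldogs. SNORA70-53673 was at 2.63 normalized CPM in Boston terrier 7, against 0.852 to 1.5 in the other dogs of the comparison group. The H/ACA genes held 14.9% of the small RNA counts in boxer 1, against 7.17% to 9.27% in the others.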

How the results depend on the processing

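H/ACA genes called at an adjusted p under 0.05 numbered 0 under every alternative run for French bulldogs against the comparison group. Their smallest adjusted p was 0.179. The median log2 fold change of those tested was between 0.23 and 0.68 under the other alternatives and between 0.43 and 0.69 with each dog left out. Over all genes, French bulldogs against the comparison group gave 0 calls, but 33 with DESeq2, 58 with DESeq2 on 18 libraries, 1 with edgeR on 18 libraries, 1 with limma-voom, and 0 to 1 with each dog left out (1 without French bulldog 4). Against boxers it was 0 to 1 with each dog left out (1 without boxer 4). Against Boston terriers the single call became 0 with only both breeds in the fit and ranged from 0 to 1 with each dog left out. SNORA73-22470 turned to -0.05 with libraries scaled to small RNA counts. SNORA74-25850, at -0.02, turned to 0.00 with DESeq2 and with its size factors, 0.10 against libraries S18 to S21, and ranged from -0.12 to 0.06 with each dog left out. With the number of the dog as a replicate block (numbers 1 to 7) it was 0.01, 0 genes were called over all genes, and 7 of 21 H/ACA genes had an unadjusted p under 0.05 (6.30% of all genes), against 10 without the block (11.2% of all genes). Same-numbered dogs correlated between -0.528 and 0.197, with 3 of 7 over 0.1, so the numbers do not pair the dogs. The causes of these changes were not tested. DESeq2 on 18 libraries and the numbers 1 to 7 without the block were chosen after seeing the data. The 25 H/ACA genes below the filter on low counts had at most 131 counts and were tested only by DESeq2 (9 of them without an adjusted p), in the fit without a filter and in part in the fits of 3 breeds or of a single library series.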
